A study of Mus musculus with 18 samples.

Results

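p53 is a transcription factor that responds to DNA damage and other stress by switching on genes for cell cycle arrest, apoptosis and repair. MDM2, a ubiquitin ligase whose own gene is a p53 target, keeps the protein low, and p53 activity is set largely through protein stability, so that the level of its mRNA need not follow its activity. In the early mouse embryo this restraint is essential, since embryos without Mdm2 die unless p53 is also removed, and in cultured mouse fibroblasts loss of Dnmt1 is known to activate p53. Here the gene for p53, Trp53, and 9 of its targets were followed, chosen by name out of 31053 mouse genes in the count tables. The choice was made with earlier results of these data known. They are Mdm2, the arrest genes Cdkn1a and Ccng1, the apoptosis genes Bax, Bbc3 and Pmaip1, and the further targets Trp53inp1, Eda2r and Phlda3. All 10 were found, and all 10 were among the 18727 genes with enough counts to be tested over the whole embryo.

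The 18 libraries were made from single E8.5 embryos with 10x Genomics 3′ v3 single-cell RNA-seq on the 129S4/SvJae background. They comprised 7 wild-type (WT) libraries and 3 with a Dnmt1 null genotype (Dnmt1 KO). A further 4 had a Dnmt3a null genotype (Dnmt3a KO) and 4 were labelled with a Dnmt3b null genotype (Dnmt3b KO). KO embryos came from matings of heterozygous mice, carry the mutation in every tissue, and were genotyped on the ectoplacental cone. Dnmt1 copies methylation onto new DNA strands, and Dnmt3a and Dnmt3b place it anew. Values are given as UMIs (unique molecules counted) per 1000000 UMIs (CPM) over all kept cells of an embryo, unless a cell class is named.

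After filtering, 109962 cells remained. Each library held 1366 to 12716 cells, with median depths of 3646 to 59653 UMIs per cell. In this total a barcode kept in both Dnmt3b KO 1 and 2 counts once in each, and 9149 barcodes reached 1500 UMIs in both. Libraries Dnmt3b KO 1 and 2 shared 12249 cell barcodes, 86.5% and 79.3% of those listed for each, with a median correlation of log counts of 0.801 for a shared barcode and 0.697 for different ones, and were summed and counted as 1 embryo, which left 17 embryos. Dnmt1 was at 14.9 to 15.6 CPM in Dnmt1 KO against 83.0 to 115 CPM in WT, and Dnmt3a at 7.31 to 11.7 CPM in Dnmt3a KO against 23.0 to 34.8 CPM in WT. Dnmt3b, as counted by 3′ tags, was not lower in Dnmt3b KO (62.9 ± 5.94 CPM, SD, n = 3) than in WT (62.3 ± 17.9 CPM, n = 7), which checks nothing about an upstream deletion. Dnmt3a was at 31.7 and 31.9 CPM in the libraries labelled Dnmt3b KO 1 and 2 but at 14.9 and 7.55 CPM in those labelled 11 and 12, below every WT embryo and, in 12, within the Dnmt3a KO range. The genotype of Dnmt3b KO 11 and 12 is therefore in doubt, and all Dnmt3b KO values given here rest on the labels. Y-linked genes exceeded 10 CPM in 1 of 7 WT embryos and in every KO library except the one labelled Dnmt3b KO 12. That library was also the only one counted with Cell Ranger 5.0.0, while the other 17 headers name 3.1.0.

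Of the start sites searched, those of Cdkn1a and Ccng1 held a match to the p53 consensus and are shown for that reason. The consensus is a pair of 10-letter sites side by side, and 20-letter matches with no spacer, at most 2 mismatches and the central C and G of each site kept were searched in RefSeq windows (assembly GRCm38.p6) running from 250 bases before to 50 bases after each start. The consensus is its own reverse complement in pattern, so both strands are covered. The rule was settled after these windows had been looked at. Such a match stood in 0.326% of 32851 windows of that length, and at 1 mismatch or fewer in 0.067%. Windows were given for 8 of the 10 genes; Cdkn1a has a second start, whose window holds no match. Both windows below are written 5′ to 3′ on the gene's strand, with the match in capitals. The Cdkn1a window is chr17:29090729-29091028, plus strand, with 1 match of 1 mismatch beginning at −51 from the start. The Ccng1 window is chr11:40755237-40755536, minus strand, with 1 match of 1 mismatch beginning at −195.
Cdkn1a: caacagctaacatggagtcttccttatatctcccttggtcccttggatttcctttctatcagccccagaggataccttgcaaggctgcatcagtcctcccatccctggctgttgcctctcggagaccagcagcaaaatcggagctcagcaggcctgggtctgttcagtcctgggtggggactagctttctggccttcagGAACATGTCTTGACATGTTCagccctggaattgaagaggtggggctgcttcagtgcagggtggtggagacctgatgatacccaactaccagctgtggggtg
Ccng1: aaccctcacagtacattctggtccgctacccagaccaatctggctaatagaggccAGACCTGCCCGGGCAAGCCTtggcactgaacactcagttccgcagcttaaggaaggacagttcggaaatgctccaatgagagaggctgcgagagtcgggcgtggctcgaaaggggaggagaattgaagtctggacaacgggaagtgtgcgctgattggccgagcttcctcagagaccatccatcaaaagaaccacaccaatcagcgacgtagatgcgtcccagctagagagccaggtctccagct
No match was found in the windows of Trp53, Mdm2, Bax, Bbc3, Eda2r or Phlda3, which says only that these letters are not in these 300 bases. The windows of the 8 genes held between 2 and 39 CpG sites, the sites that DNMT enzymes methylate, against a median of 7 over all windows. The Cdkn1a window printed here held 2 and the Ccng1 window 14.

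Over the whole embryo, 9 of the 10 genes were higher in Dnmt1 KO than in WT at an adjusted p under 0.05, against 18.9% of all genes tested, and none was lower. Trp53 itself was the exception. Of the 9, 6 also passed the limits of a 1% false discovery rate and a 2-fold change, which 8.02% of all genes passed upwards and 6.07% downwards: Cdkn1a, Ccng1, Pmaip1, Trp53inp1, Eda2r and Phlda3. The median log2 fold change was 1.65 over the 10 genes and 0.014 over all genes. For 8 genes every Dnmt1 KO embryo lay above every WT embryo, as did 10.9% of all genes. These are sums over cells, in which fewer cells of a type and less RNA per cell cannot be told apart. P-values measure the spread between single embryos.

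**Figure D1:**
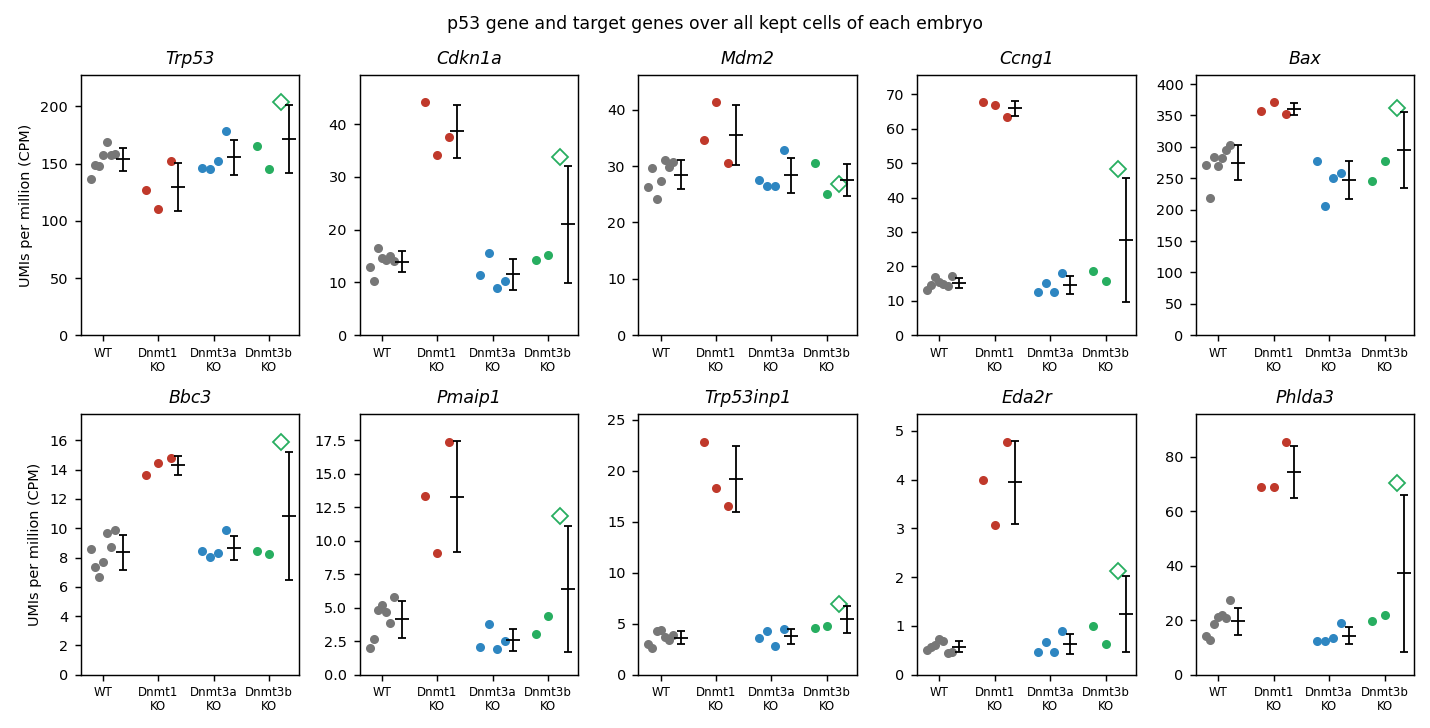
UMIs per 1000000 (linear axes from 0) of Trp53 and its 9 targets over all kept cells, 1 point per embryo, in WT (grey, n = 7), Dnmt1 KO (red, n = 3), Dnmt3a KO (blue, n = 4) and Dnmt3b KO (green, n = 3, libraries 1 and 2 summed), with the mean and SD in black. The open diamond is the library labelled Dnmt3b KO 12, which lies among or next to the Dnmt1 KO embryos for Bax, Bbc3 and Phlda3, while Trp53 is not higher in Dnmt1 KO.

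Trp53 (chr11:69580359-69591873, plus strand; gene positions are from the build mm10) stood at 137 to 169 CPM in WT with a median of 157. It measured 127, 110 and 152 CPM in the 3 Dnmt1 KO embryos, so that 2 of 3 were below every WT embryo. The log2 fold change of −0.18 ± 0.10 (SE) did not pass (adjusted p = 0.153). Without Dnmt1 KO 3 it was −0.31 and passed (adjusted p = 0.011). Without the extraembryonic (ExE) endoderm and ectoderm classes it was 0.07, which did not pass. Mdm2 (chr10:117688875-117710758, minus strand), the negative regulator, ranged from 24.2 to 31.1 CPM in WT with a median of 29.6. The Dnmt1 KO embryos held 34.6, 41.3 and 30.6 CPM, 2 of them above every WT embryo. The rise was small, 0.39 ± 0.09 on the log2 scale (adjusted p = 0.0038). It was lost without Dnmt1 KO 2 (0.25, adjusted p = 0.057) and without ExE endoderm and ectoderm (0.08, adjusted p = 0.49).

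Cdkn1a (chr17:29090976-29100727, plus strand) encodes p21, the inhibitor of cyclin-dependent kinases through which p53 halts the cell cycle. WT embryos ranged from 10.2 to 16.5 CPM with a median of 14.2, and the Dnmt1 KO embryos were at 44.1, 34.2 and 37.6 CPM. The groups did not overlap, and the log2 fold change was 1.54 ± 0.21 (adjusted p = 3.1e-05), a 2.90-fold rise. Ccng1 (chr11:40748552-40755311, minus strand), which encodes cyclin G1, a cyclin that recruits a phosphatase to MDM2, lay between 13.03 and 17.3 CPM in WT with a median of 14.95. It was at 67.6, 66.8 and 63.5 CPM in Dnmt1 KO, far from the WT range and close together. Its log2 fold change was 2.18 ± 0.21 (adjusted p = 7.0e-07), or 4.54-fold. Both genes whose windows are printed above were thus among those that rose by over 2-fold, as were 4 others of the 10 genes without such a match in the windows searched or without a window.

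The apoptosis genes rose by different amounts. Bax (chr7:45461697-45466898, minus strand), which forms pores in the mitochondrial membrane, was at 218 to 303 CPM in WT with a median of 282 and at 357, 371 and 352 CPM in Dnmt1 KO. The ranges did not overlap although the change was only 0.46 ± 0.11 on the log2 scale (adjusted p = 0.0034). Bbc3 (chr7:16308393-16318205, plus strand) encodes PUMA, a BH3-only activator of BAX. It ranged from 6.66 to 9.87 CPM in WT with a median of 8.60 and reached 13.6, 14.4 and 14.8 CPM in Dnmt1 KO, again without overlap (0.84 ± 0.16, adjusted p = 4.5e-04). Pmaip1 (chr18:66458533-66465565, plus strand) encodes NOXA, another BH3-only protein. It ranged from 1.998 to 5.79 CPM in WT with a median of 4.66 and was at 13.3, 9.10 and 17.4 CPM in Dnmt1 KO. The groups did not overlap, and its log2 fold change of 1.77 ± 0.34 (adjusted p = 7.0e-04) was the largest of the 3 apoptosis genes in these sums.

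The other 3 targets rose as well. Trp53inp1 (chr4:11156431-11174379, plus strand), a stress-induced protein that acts in autophagy and cell death, lay between 2.63 and 4.36 CPM in WT (median 3.67) and was at 22.8, 18.3 and 16.6 CPM in Dnmt1 KO. This was a log2 fold change of 2.48 ± 0.15 (adjusted p = 3.9e-09), with no overlap. Eda2r (chrX:97333840-97377216, minus strand), a receptor of the TNF receptor family that binds ectodysplasin A2, was scarce. It was at 0.439 to 0.732 CPM in WT (median 0.565) and at 3.99, 3.07 and 4.78 CPM in Dnmt1 KO, a log2 fold change of 2.87 ± 0.27 (adjusted p = 5.7e-07). Phlda3 (chr1:135766119-135769136, plus strand), an inhibitor of AKT, was at 12.6 to 27.5 CPM in WT (median 20.9) and at 69.0, 68.8 and 85.5 CPM in Dnmt1 KO. The log2 fold change was 2.02 ± 0.27 (adjusted p = 2.5e-05), again without overlap.

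Other measures were set beside this comparison. In kept cells, mitochondrial UMIs made up 4.12 to 4.49% in Dnmt1 KO and 2.76 to 3.29% in WT. Of 12 genes induced by tissue dissociation, 2 were higher and none lower in Dnmt1 KO, against 18.9% and 17.9% of all genes, and their summed level of 255 to 317 CPM in Dnmt1 KO lay within the WT range of 167 to 352 CPM. ExE ectoderm-like cells made up 4.55 to 31.1% of Dnmt1 KO cells and at most 1.82% of WT cells. Epiblast-like cells made up 9.27 to 17.1% of Dnmt1 KO cells and at most 0.233% of WT cells. Dnmt1 KO embryos held no cells named forebrain and midbrain-like, hindbrain and spinal cord-like, head mesenchyme-like, neural crest-like or surface ectoderm-like. The paper reports a minor developmental delay of Dnmt1 KO embryos. Without ExE endoderm and ectoderm 6 genes were called (8.05% of all genes upwards), with log2 fold changes from 1.78 for Cdkn1a to 2.97 for Eda2r. Epiblast-like cells stayed in that fit. With the level of Y-linked genes (log2 of CPM + 1) as a covariate 7 were called (6.38% of all genes upwards), the values being 2.18 for Cdkn1a and 2.95 for Phlda3. Mdm2 was at 0.25 and no longer passed 0.05 (adjusted p = 0.188). All Dnmt1 KO embryos held Y-linked genes above 10 CPM, so this covariate rests on embryos of other groups. Only WT 2 and the library labelled Dnmt3b KO 12 stood apart from their group in it. Its part in these values cannot be told apart from those embryos. The parts of mitochondrial content, of the other classes and of the delay in these values were not tested.

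In Dnmt3a KO embryos none of the 10 genes passed in either direction. Of all genes, 0.539% were higher at an adjusted p under 0.05 and 0.0481% lower. The edgeR log2 fold changes lay between −0.68 ± 0.34 for Pmaip1 (adjusted p = 0.543, unadjusted p = 0.062, the smallest of the 10) and 0.11 ± 0.27 for Eda2r, so that none passed an unadjusted p of 0.05 either. DESeq2 also called none. Cdkn1a was at 11.3, 15.6, 8.92 and 10.3 CPM in Dnmt3a KO 1, 2, 13 and 14, Ccng1 at 12.6, 15.1, 12.5 and 18.0 CPM, and Phlda3 at 12.4, 12.3, 13.3 and 18.8 CPM. All 3 overlapped WT. Summed over the 9 targets, Dnmt3a KO embryos held 292 to 356 CPM, WT embryos 298 to 413 CPM and Dnmt1 KO embryos 623 to 627 CPM. Most of each sum was Bax alone, at 205 to 277 CPM, 218 to 303 CPM and 352 to 371 CPM in that order.

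In Dnmt3b KO embryos 2 genes were higher at an adjusted p under 0.05, against 3.27% of all genes, and none passed the 2-fold and 1% limits, which 1.71% of all genes passed upwards and 0.0267% downwards. They were Eda2r (1.09 ± 0.28, adjusted p = 0.034) and Ccng1 (0.81 ± 0.22, adjusted p = 0.043). The values came from embryos that were unlike each other. Ccng1 was at 18.7 CPM in libraries 1 and 2 summed (17.4 and 19.9 CPM in each), 15.6 CPM in 11 and 48.3 CPM in 12. Eda2r was at 0.992, 0.621 and 2.12 CPM, and Phlda3 at 19.5, 21.7 and 70.4 CPM in the same order. Without the library labelled Dnmt3b KO 12, neither gene passed (Eda2r 0.49, adjusted p = 0.71; Ccng1 0.16, adjusted p = 0.86), and the log2 fold change of Phlda3, 0.90 ± 0.28 with it (adjusted p = 0.089), was 0.09. Trp53inp1 was above every WT embryo in all 3 (4.52, 4.79 and 6.95 CPM), as were 5.61% of all genes, but its change of 0.56 ± 0.16 did not pass (adjusted p = 0.059). With the level of Y-linked genes as a covariate Phlda3 (1.25, adjusted p = 5.4e-04), Trp53inp1 (0.78, adjusted p = 0.0054) and Cdkn1a (0.85, adjusted p = 0.0082) did pass. Within groups this covariate set apart only WT 2 and the library labelled Dnmt3b KO 12. Its part in these values cannot be told apart from those embryos.

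The library labelled Dnmt3b KO 12 was singled out after its values had been seen, so the following is a description. In it 9 of the 10 genes, all but Mdm2, lay above every WT embryo, and so did 29.1% of all genes tested. In libraries 1 and 2 summed 3 genes did (18.2% of all genes) and in library 11 it was 1 (12.8%). The library had Cdkn1a at 33.7 CPM, Bax at 362 CPM, Bbc3 at 15.9 CPM and Pmaip1 at 11.8 CPM, each within or next to the Dnmt1 KO values. Other genes lay under the lowest Dnmt1 KO embryo: Trp53inp1 (6.95 against 16.6 CPM), Ccng1 (48.3 against 63.5 CPM), Eda2r (2.12 against 3.07 CPM) and Mdm2 (26.8 against 30.6 CPM). Trp53 at 203 CPM was the highest of all 17 embryos. Its Dnmt1 level was not low (111 CPM), and mitochondrial UMIs made up 2.96% of kept cells, within the WT range. An embryo of another group, Dnmt3a KO 14, had 36.6% of all genes and 5 of the 10 genes above every WT embryo, with mitochondrial UMIs at 4.58%. The summed level of the 9 targets was 578 CPM in the library labelled Dnmt3b KO 12, of which Bax was 362 CPM. The sum was 292 to 356 CPM in the 4 Dnmt3a KO embryos and 351 to 413 CPM in the 6 WT embryos with Y-linked genes at no more than 10 CPM. No other embryo had both low Dnmt3a and Y-linked genes at this level, and the part of either in these values was not tested. The Cell Ranger version was found in no other library and cannot be told apart from the library itself.

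**Figure D2:**
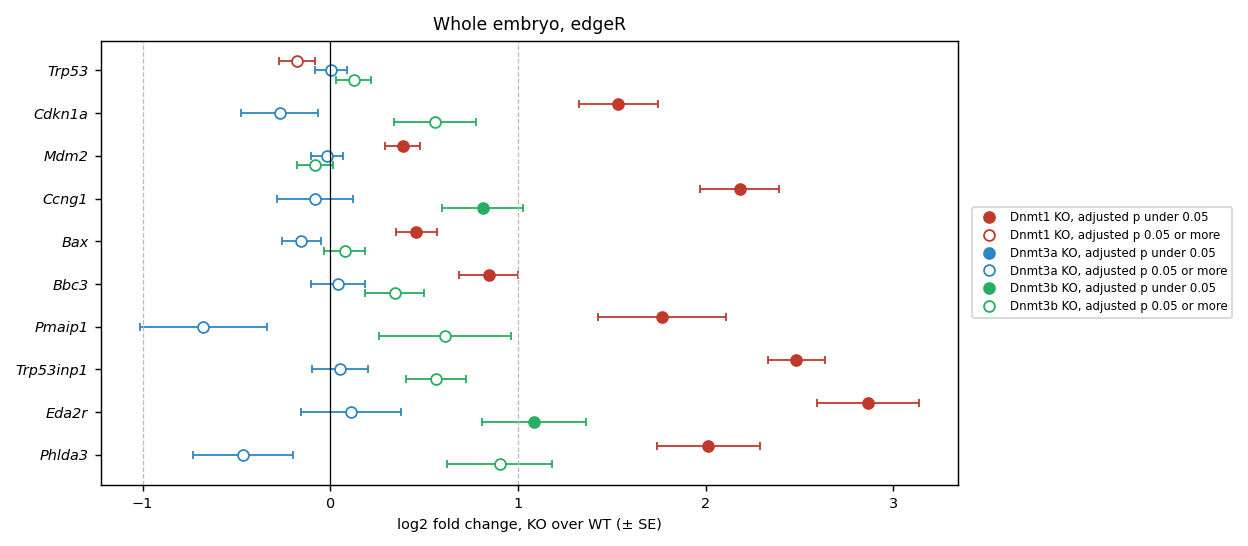
edgeR log2 fold changes (horizontal axis, with SE) of the 10 genes in Dnmt1 KO (red), Dnmt3a KO (blue) and Dnmt3b KO (green) over WT, filled where the adjusted p was under 0.05. 9 red points are filled and lie right of 0, no blue point is filled, and the 2 filled green points are Ccng1 and Eda2r.

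The KO groups were then compared directly. Dnmt1 KO was higher than Dnmt3a KO in 9 genes at an adjusted p under 0.05 (17.6% of all genes) and called in 6, all higher (6.84%; 6.35% of all genes were called lower). Against Dnmt3b KO it was higher in 7 (14%), and Trp53 was lower, by a log2 fold change of −0.30 ± 0.11 (adjusted p = 0.0495), as were 14.9% of all genes. The calls at 2-fold and 1% were 3, all higher (3.73%, with 4.89% of all genes called lower), namely Ccng1 (1.37 ± 0.27, adjusted p = 0.0015), Trp53inp1 (1.92 ± 0.20, adjusted p = 5.4e-06) and Eda2r (1.78 ± 0.34, adjusted p = 0.0013). Without the library labelled Dnmt3b KO 12 there were 6, against 4.0% of all genes called higher in that fit. Dnmt3b KO and Dnmt3a KO did not differ in any of the 10 genes at an adjusted p under 0.05, where 0.481% of all genes were higher in Dnmt3b KO. The comparisons with WT share the WT embryos.

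Cells were also sorted into classes by clustering and marker genes. In the 16 classes with at least 25 cells in at least 3 WT embryos the genes had unlike patterns, given as means over embryos ± SD with no test. Trp53 was highest in endothelium-like cells (241 ± 14.3 CPM) and lowest in cardiomyocyte-like (59.7 ± 4.70 CPM) and ExE endoderm-like cells (61.7 ± 4.91 CPM), which lay within each other's spread. Cdkn1a led in gut endoderm-like cells (49.3 ± 14.8 CPM), followed by ExE endoderm-like (32.0 ± 5.03 CPM), surface ectoderm-like (24.99 ± 6.80 CPM) and neuromesodermal progenitor (NMP)-like cells (22.1 ± 5.05 CPM), where neighbours overlap. In the other 12 classes it was at most 8.63 CPM. The lowest means were 2.07 ± 0.733 CPM in forebrain and midbrain-like and 2.06 ± 1.04 CPM in ExE mesoderm-like cells, which overlap. NMP-like cells were also high in Trp53 (216 ± 14.8 CPM, rank 3 of the 16 classes), whereas gut endoderm-like cells held rank 10 for Trp53 (167 ± 8.07 CPM). Of the WT cells named NMP-like, 48.7% fell in cluster 5, whose marker score was 1.16 for NMP and 0.958 for allantois. The name is weak for that cluster, and all values given for NMP-like cells include it.

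Other targets peaked elsewhere. Phlda3 stood at 82.7 ± 32.1 CPM in surface ectoderm-like cells, above the next class, ExE mesoderm-like, at 36.05 ± 8.90 CPM, and at 2.95 ± 2.08 CPM in ExE endoderm-like cells. Pmaip1 was highest in NMP-like cells (14.4 ± 1.74 CPM) and at most 6.83 CPM on average in the others. Trp53inp1 led in ExE endoderm-like (10.6 ± 1.35 CPM) and gut endoderm-like cells (7.91 ± 2.16 CPM). Bbc3 was highest in the neural classes, hindbrain and spinal cord-like (16.2 ± 2.85 CPM) and forebrain and midbrain-like (15.3 ± 3.03 CPM), which overlap. Mdm2 and Bax varied least, from 25.1 to 39.7 CPM and from 223 to 331 CPM over the 16 classes. Erythroid-like cells were the lowest class for Pmaip1 (0.698 ± 0.255 CPM) and Trp53inp1 (0.487 ± 0.167 CPM).

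**Figure D3:**
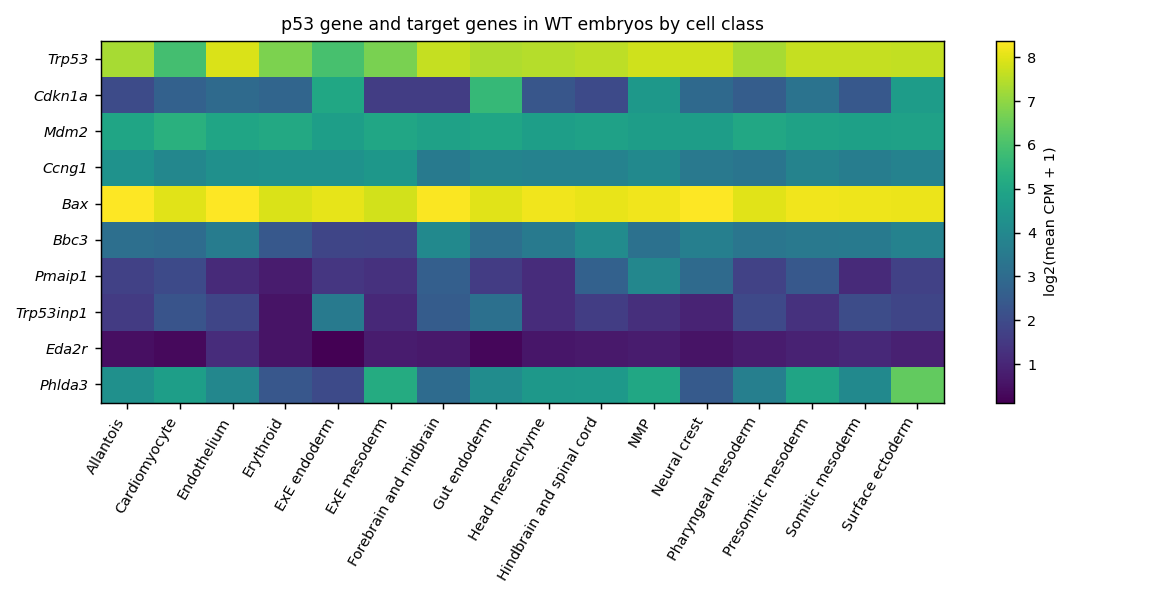
Mean level of the 10 genes in WT embryos (colour, log2 of the mean CPM plus 1) by cell class (columns), over 6 or 7 embryos with at least 25 cells of the class. Cdkn1a is brightest in gut endoderm, Phlda3 in surface ectoderm and Pmaip1 in NMP, while the rows of Mdm2 and Bax are nearly even.

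Within cell classes the rise in Dnmt1 KO was seen again. Only 5 classes had enough cells in both groups, which gave 50 pairs of a gene and a class. Of these 35 were higher and 1 lower at an adjusted p under 0.05, against 13.8% and 14% of all pairs of a tested gene and class, and 23 were called upwards at 2-fold and 1% (4.51%) and none downwards (3.69%). By class, 9 of 10 genes were higher in ExE endoderm-like cells, 9 in ExE mesoderm-like, 8 in pharyngeal mesoderm-like, 7 in gut endoderm-like and 2 in endothelium-like cells. Ccng1 and Pmaip1 were higher in all 5. The shares of all pairs are pooled over the classes and are not given by class. Dnmt1 KO embryos 1, 2 and 3 held only 29, 38 and 28 gut endoderm-like and 40, 35 and 174 endothelium-like cells. They held 419, 810 and 254 ExE endoderm-like cells, so the counts by class differ in precision. Different clusters held most of a class in the groups: in Dnmt1 KO, cluster 11 made up 69.1% of ExE endoderm-like cells, against clusters 2 (47.5%) and 0 (40.0%) in WT, cluster 8 made up 89.8% of ExE mesoderm-like cells against cluster 23 (41.0%) in WT, and cluster 39 made up 93.2% of pharyngeal mesoderm-like cells against cluster 16 (99.5%) in WT. Gut endoderm-like and endothelium-like cells had the same largest cluster in both, but not to the same share. Cluster 20 made up 97.9% of gut endoderm-like cells in Dnmt1 KO and 64.6% in WT, where cluster 37 held 34.6%. Cluster 9 made up 78.3% of endothelium-like cells in Dnmt1 KO and 53.9% in WT, with cluster 22 at 21.3% and 37.6%.

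In ExE endoderm-like cells Ccng1 was at 16.5 to 21.8 CPM in WT (median 19.5) and at 71.6, 65.4 and 65.3 CPM in Dnmt1 KO (1.83 ± 0.09 on the log2 scale, adjusted p = 4.0e-10). Phlda3, almost silent there in WT at 1.28 to 7.46 CPM (median 2.75), reached 29.3, 23.6 and 26.8 CPM (3.30 ± 0.36, adjusted p = 3.7e-06). Eda2r was at 0 to 0.212 CPM in WT (median 0.0824) and at 2.54, 1.76 and 1.75 CPM in Dnmt1 KO (4.73 ± 0.65, adjusted p = 5.4e-05), on 13 UMIs over all WT embryos and 189 over the Dnmt1 KO embryos. None of these ranges overlapped. Mdm2 rose here as well, being at 22.9 to 29.0 CPM in WT (median 25.5) and at 39.2, 37.5 and 38.2 CPM in Dnmt1 KO (0.58 ± 0.08, adjusted p = 8.2e-05).

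In ExE mesoderm-like cells Cdkn1a was at 0.624 to 3.83 CPM in WT (median 1.97) and at 15.2, 18.2 and 23.2 CPM in Dnmt1 KO (3.20 ± 0.33, adjusted p = 4.8e-07). Its WT mean there was the lowest of the classes compared, but within the spread of others. Bbc3 was at 0.806 to 4.24 CPM in WT (median 2.59) and at 9.36, 11.4 and 11.2 CPM in Dnmt1 KO (2.22 ± 0.28, adjusted p = 5.0e-06). Trp53 was higher only in this class of the 5, at 141, 141 and 143 CPM against 96.5 to 108 CPM (median 105) in WT (0.51 ± 0.09, adjusted p = 2.4e-04). The difference of this effect between classes was not tested. Mdm2 fell here, to 26.6, 25.7 and 21.04 CPM from 22.6 to 35.6 CPM in WT (−0.29 ± 0.11, adjusted p = 0.034), with overlapping groups.

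In pharyngeal mesoderm-like cells the median log2 fold change over the 10 genes was 2.30, the highest of the 5 classes. The median over all genes of that class is not given. Most of these cells in Dnmt1 KO were in cluster 39, whose marker score was 1.14 for pharyngeal mesoderm and 0.829 for head mesenchyme. The name is weak for that cluster, and the WT cells were mostly in cluster 16. Pmaip1 in pharyngeal mesoderm-like cells was at 0.484 to 3.76 CPM in 6 WT embryos (median 2.46) and at 17.1, 24.9 and 24.2 CPM in Dnmt1 KO (3.31 ± 0.45, adjusted p = 4.3e-05). In gut endoderm-like cells, where Cdkn1a is high in WT, it did not pass (31.6 to 69.9 CPM, median 45.6, against 68.4, 52.3 and 66.6 CPM; 0.50 ± 0.25, adjusted p = 0.156), while Phlda3 rose, being at 6.63 to 23.1 CPM in WT (median 16.1) and at 92.1, 88.4 and 149 CPM in Dnmt1 KO (2.91 ± 0.31, adjusted p = 7.7e-07). In endothelium-like cells the genes that passed were Pmaip1 (3.16 ± 0.44, adjusted p = 1.9e-05) and Ccng1 (0.74 ± 0.27, adjusted p = 0.046). Cdkn1a in these cells was at 4.77, 24.6 and 5.43 CPM in Dnmt1 KO, so that 1 embryo of 3 stood above the WT range of 3.70 to 10.9 CPM.

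Some classes were common in Dnmt1 KO and rare in WT, and could not be tested. In epiblast-like cells, 9.27 to 17.1% of Dnmt1 KO cells and at most 0.233% of WT cells, Phlda3 was at 192 ± 39.5 CPM (n = 3), Cdkn1a at 64.0 ± 7.18 CPM, Pmaip1 at 33.6 ± 4.203 CPM and Trp53 at 228 ± 12.3 CPM. ExE ectoderm-like cells had less Cdkn1a (17.8 ± 6.56 CPM) and Pmaip1 (7.75 ± 0.754 CPM) but more Mdm2 (57.3 ± 5.87 CPM against 23.1 ± 1.02 CPM in epiblast-like cells). Immune-like cells had Bbc3 at 27.02 ± 1.88 CPM and Phlda3 at 32.4 ± 1.86 CPM.

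**Figure D4:**
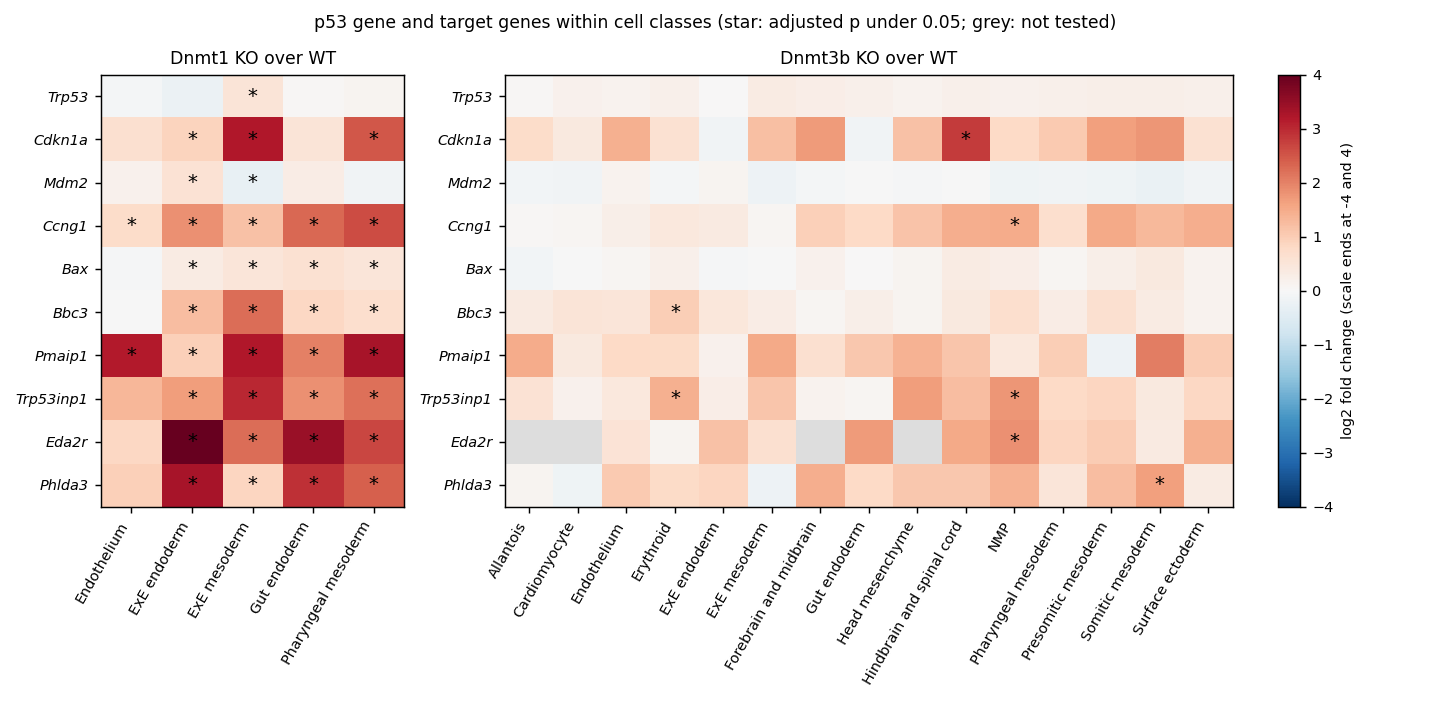
edgeR log2 fold changes over WT (colour) of the 10 genes (rows) by cell class (columns), in Dnmt1 KO on the left and Dnmt3b KO on the right; stars mark an adjusted p under 0.05 and grey marks pairs not tested. The left panel holds 36 stars, 35 of them on higher values; the right panel holds 7.

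In Dnmt3a KO 16 classes and 154 pairs were tested and none passed, where 0.269% of all pairs were higher and 0.0946% lower, and 0.0967% were called upwards and 0.0159% downwards. In Dnmt3b KO 15 classes gave 146 pairs, of which 7 were higher (1.28% of all pairs) and 1 was called (0.676%). The call was Cdkn1a in hindbrain and spinal cord-like cells (2.80 ± 0.51, adjusted p = 0.0053), with 5.76 CPM in libraries 1 and 2 summed, 4.64 CPM in 11 and 53.6 CPM in 12 against 2.18 to 4.85 CPM in WT (median 2.65). It was lost without library 12, and also when any of 6 of the 7 WT embryos was left out. With the Y-linked covariate 24 pairs were called (0.956% of all pairs), though that covariate rests on WT 2 and library 12. Without libraries 1 and 2, 9 pairs were called (0.917%). The other 6 were Bbc3 and Trp53inp1 in erythroid-like cells, Ccng1, Trp53inp1 and Eda2r in NMP-like cells, and Phlda3 in somitic mesoderm-like cells, with adjusted p from 0.025 to 0.047. Without library 12 none of the 7 passed, with adjusted p from 0.27 to 0.79. Trp53inp1 in erythroid-like cells was at 1.54 CPM in libraries 1 and 2 summed, 1.10 CPM in 11 and 1.503 CPM in 12, all above the WT range of 0.279 to 0.745 CPM. Its log2 fold change was 1.43 ± 0.33 (adjusted p = 0.047) with library 12 and 1.35 ± 0.39 (adjusted p = 0.27) without it. Cluster 46 held erythroid-like cells of library 12 alone, 77.8% of those in it, so that this library's erythroid-like cells stood apart from those of the other embryos.

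Across classes the library labelled Dnmt3b KO 12 had 119 of 150 pairs above every WT embryo, where 23.0% of all pairs of a gene and a class were. It was 43 of 160 in libraries 1 and 2 summed (14.5% of all pairs) and 19 of 160 in library 11 (11%). In NMP-like cells Ccng1 was at 95.9 CPM in library 12 and 14.7 to 20.9 CPM in the others, with WT at 9.99 to 21.1 CPM. Phlda3 was at 208 CPM in those cells against 11.1 to 66.9 CPM in WT. In ExE mesoderm-like, cardiomyocyte-like, allantois-like and surface ectoderm-like cells, in contrast, Phlda3 in library 12 lay within the WT range. These are descriptions of 1 library.

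**Figure D5:**
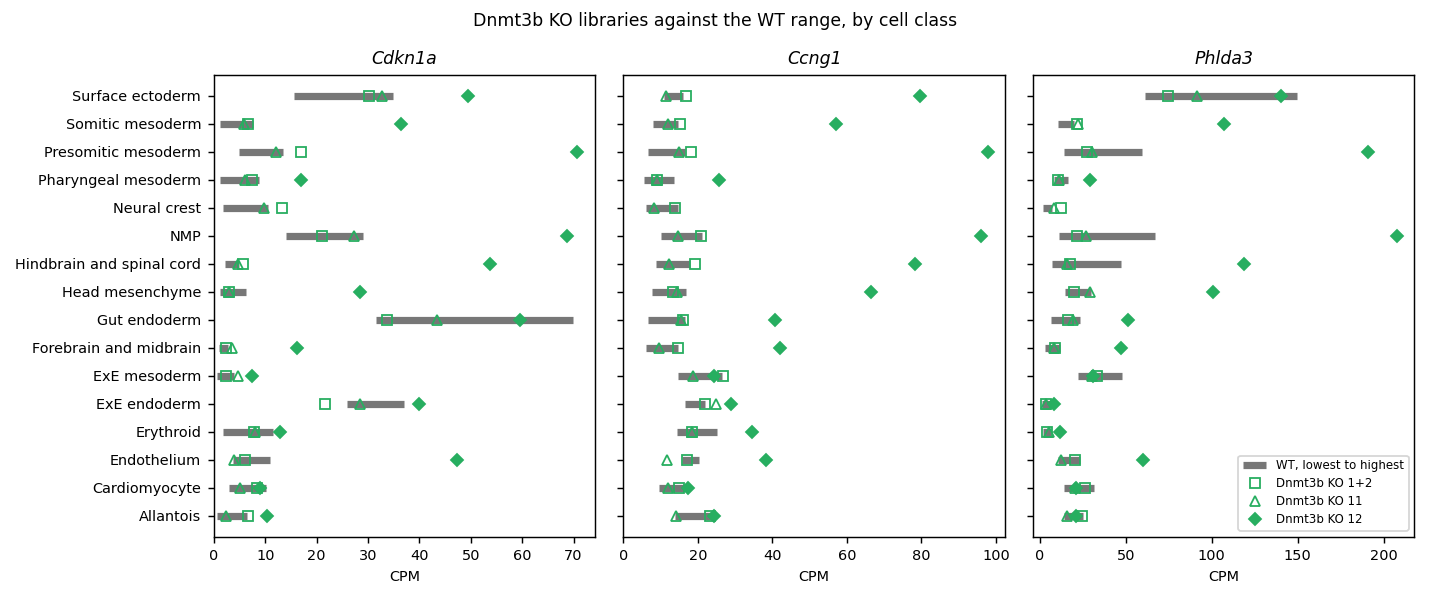
Level (CPM, linear axes) of Cdkn1a, Ccng1 and Phlda3 by cell class (rows) in Dnmt3b KO libraries 1 and 2 summed (open squares), 11 (open triangles) and 12 (filled diamonds), with the WT range from lowest to highest embryo as a grey bar. Most diamonds lie right of the bars, up to 208 CPM for Phlda3 in NMP-like cells, while squares and triangles lie on or near them.

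Whether erythroid-like cells responded differently from the mean of 13 other classes was tested per gene with an exact two-sided permutation test over embryos, on log2(CPM + 1). None of the 20 differences passed (smallest adjusted p = 0.40). The smallest unadjusted p was 0.042, for Eda2r in Dnmt3b KO, where the smallest p that 120 splits allow is 0.0083, and for Dnmt3a KO, with 330 splits, it is 0.0030. Adjusted over 20 tests, the smallest p of a single gene could not reach 0.05 by itself, so the result says little either way. In Dnmt1 KO only 1 embryo had 25 erythroid-like cells, so this was not tested there.

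The share of cells with at least 1 UMI of Cdkn1a, once each cell was thinned to 1500 UMIs, was 5.37 ± 0.886% in Dnmt1 KO and 2.0 ± 0.206% in WT, while Dnmt3b KO had 2.98 ± 1.62% and Dnmt3a KO 1.83 ± 0.639%. Unthinned shares were 37.3, 17.5, 19.2 and 12.1% in that order, at median depths that ran from 3646 to 59653 UMIs. No class is known to lack Cdkn1a, so the share that free RNA gives was not measured. In ExE mesoderm-like cells, the WT class with the lowest mean level, the thinned share was 0.148 ± 0.262% in WT and 2.22 ± 1.05% in Dnmt1 KO, at median depths of 6430 to 58104 and 31876 to 51188 UMIs before thinning.

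Other genes of the pathway were read from lists, whose counts stand against 18.9% of all genes that were higher and 17.9% that were lower in Dnmt1 KO at an adjusted p under 0.05. Of 26 further p53 targets 25 were tested, and 11 were higher and 1 lower in Dnmt1 KO, with a median log2 fold change of 0.37 over the list and 0.014 over all genes. The 4 with the smallest adjusted p among those called were the thiamine transporter gene Slc19a2 (1.69 ± 0.15), the leucine sensor gene Sesn2 (1.58 ± 0.16), the death receptor gene Tnfrsf10b (1.04 ± 0.14) and, in the opposite direction, the DNA damage gene Gadd45a (−1.34 ± 0.17), with adjusted p of 1.9e-07, 8.9e-07, 1.9e-05 and 1.3e-05. Of 16 regulators of p53, 3 were higher and 1 lower, a share of higher genes near that of all genes. Cdkn2a, which encodes the MDM2 inhibitor ARF as well as p16, was called (2.27 ± 0.33, adjusted p = 4.9e-05), with the Dnmt1 KO embryos far apart (34.5 ± 23.5 CPM against 7.53 ± 1.40 CPM in WT).

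Apoptosis and cell cycle genes outside the p53 targets are given against the same 18.9% higher and 17.9% lower of all genes. Of 16 other apoptosis genes 2 were higher and 5 lower, among them the survival gene Bcl2 (−1.65 ± 0.20, adjusted p = 6.4e-06), the BAX relative Bok (−1.01 ± 0.15, adjusted p = 7.0e-05) and the BH3-only gene Hrk (1.14 ± 0.19, adjusted p = 2.3e-04). Of 16 cell cycle genes known to be repressed downstream of p21, 1 was higher and 1 lower, with a median of −0.025. Of 13 other CDK inhibitors and G1 cyclins and kinases 2 were higher and 6 lower. The imprinted CDK inhibitor gene Cdkn1c fell from 317 ± 59.0 to 9.64 ± 1.82 CPM (−4.98 ± 0.21, adjusted p = 8.5e-11), Cdkn2b rose (2.22 ± 0.29, adjusted p = 1.4e-05) and Ccnd2 fell (−1.10 ± 0.23, adjusted p = 0.0013).

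Of the p53 relatives, Trp73 was higher, at 0.320 ± 0.214 CPM against 0.0248 ± 0.0269 CPM (adjusted p = 9.7e-05), and Trp63 lower (−1.99 ± 0.48, adjusted p = 0.0035). Of 12 genes of the integrated stress response, a separate pathway that senses protein and amino acid stress, 4 were higher and none lower (18.9% and 17.9% of all genes), with Chac1 (2.76 ± 0.19, adjusted p = 1.2e-08) and Cebpb (1.73 ± 0.34, adjusted p = 7.5e-04) called. In Dnmt3a KO no gene of these lists passed. In Dnmt3b KO 1 of the 25 further p53 targets tested was higher, the death receptor gene Fas (1.123, not called). Of the 13 other CDK inhibitors and G1 cyclins and kinases 1 was higher, Cdkn1c (0.62, not called). Of all genes 3.27% were higher in this comparison. Both values include the library labelled Dnmt3b KO 12.

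The 5 genes outside the 10 whose level over the 17 embryos was most like the mean z score of the 10 genes, by Pearson's r of log2(CPM + 1) among 9389 genes with a mean of at least 5 CPM, were Dhx16 (0.946), Tex13b (0.944), Arrdc4 (0.943), Hspa4l (0.935) and Sesn2 (0.932). The embryos share group and depth, so these values are a description. Tex13b was at 0.0314 CPM in WT and 24.5 CPM in Dnmt1 KO on average, and Arrdc4 at 9.75 and 19.4 CPM.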

How the data were processed

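The 18 single-cell libraries of E8.5 embryos were deposited as matrices of UMI counts per gene and cell barcode. The authors made these with Cell Ranger (versions 3.1.0 and 5.0.0 per the file headers) on mm10. In 4 libraries the reference combined human and mouse, and only mouse genes were used. Kept cells had at least 1500 mouse UMIs, at most 30% mitochondrial and 35% ribosomal protein UMIs, and passed doublet removal on a score from simulated doublets, at a rate that rises with the number of cells. Cells were clustered (Leiden, resolution 2, leidenalg 0.10.2) and clusters named from marker genes, with the naming thresholds settled after scores had been seen. Classes needed 25 cells per embryo and 3 embryos per group.

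Counts were summed per embryo, and per embryo and class, and tested in edgeR 4.0.16 by quasi-likelihood (filterByExpr, TMM) in 1 fit over the 4 groups, with Benjamini-Hochberg adjustment over all genes tested. Calls needed an adjusted p under 0.01 and a 2-fold change; a gene is called higher or lower where the adjusted p was under 0.05. Alternatives were DESeq2 1.42.0, other scalings and filters, thinning, covariates, a replicate block and leaving out libraries. The edgeR step was tested on simulated data for Dnmt1 KO against WT over 18727 genes. At an adjusted p under 0.05 with no fold limit, 86 of 100 genes changed 2-fold and 98 of 100 changed 4-fold were recovered. Among unchanged genes 3 passed. The simulation changed 200 genes and kept WT proportions for the rest. Changes as wide as those in Dnmt1 KO were not covered. The changed genes were drawn from those above 1 CPM in WT, so genes as scarce as Eda2r were not among them. Kept UMIs per library ranged from 36513059 to 230668856, and precision is that of counts only within a library.

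The 10 genes and the gene lists were chosen with earlier results of these data known. Genes named were the 10, the 3 Dnmt genes, at most 4 genes per list and comparison (those called with the smallest adjusted p) and the 5 other genes most correlated with the mean of the 10; Fas and Cdkn1c in Dnmt3b KO were named after their values were seen. Groups follow the labels.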

Additional observations from a re-analysis of the deposited data

Results flagged for a closer look

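In 20 groups of 4 or 7 embryos, 10 genes each in Dnmt3a KO and WT, 3 held an embryo far from the others by Dixon's criterion at the 95% level, which chance meets in about 1 of 20 groups. Mdm2 in Dnmt3a KO 14 was at 32.9 CPM, with the next embryo of the group at 27.5 CPM. Phlda3 in the same embryo was at 18.8 CPM, with the next at 13.3 CPM. Bax in WT 2, the WT embryo with Y-linked transcripts, was at 218 CPM, with the next at 269 CPM.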

How the results depend on the processing

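Counts of called genes in Dnmt1 KO over WT ranged from 6 to 7 over 14 alternatives and were 6 with any library left out; pairs of a gene and a class ranged from 17 to 26 over 11 alternatives and from 21 to 25 with a library left out. In Dnmt3a KO both counts were 0 throughout. In Dnmt3b KO over WT the count of 0 became 1 with DESeq2, with the Y-linked covariate and without libraries 1 and 2, and ranged from 0 to 2 with 1 library left out (2 without library 11). The 1 called pair became 2 with DESeq2, 4 with no low-count filter, 24 with the Y-linked covariate, 9 without libraries 1 and 2, and 0 with libraries 1 and 2 separate or without 11 and 12, and ranged from 0 to 5 with 1 library left out (5 without library 11). For Dnmt1 KO over Dnmt3b KO the count of 3 became 5 with libraries 1 and 2 separate or without 11 and 12, and 6 with the Y-linked covariate, and ranged from 3 to 6 with 1 library left out. For Dnmt3b KO over Dnmt3a KO it was 1 with DESeq2 and without libraries 1 and 2. Thinning decided the share of cells with a UMI of Cdkn1a, which without it was 37.3% (Dnmt1 KO), 17.5% (WT), 19.2% (Dnmt3b KO) and 12.1% (Dnmt3a KO). The causes were not tested.

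Of the single values in Dnmt1 KO, Mdm2 also fell short of an adjusted p of 0.05 with the Y-linked covariate (0.25, adjusted p = 0.188) and with cells thinned (0.39, adjusted p = 0.0502), and Trp53 turned to 0.068 without ExE endoderm and ectoderm. In Dnmt3b KO without libraries 11 and 12, which left 1 embryo, Ccng1 was at 0.23 and Eda2r at 0.74. Ccng1 missed 0.05 without each of Dnmt1 KO 1, Dnmt3a KO 13 and 14, and WT 1, 2, 4, 5 and 6. Its log2 values were then 0.79 to 0.83, but 0.16 without Dnmt3b KO 12, where it also missed 0.05. Eda2r missed 0.05 without each of WT 1, 6 and 7 (1.02 to 1.08) and without Dnmt3b KO 12 (0.49). Both also missed it with embryos thinned (adjusted p = 0.064 and 0.057) and cells thinned (0.28 and 0.45), where the log2 values stayed about as large (Ccng1 0.82 and 0.78, Eda2r 1.30 and 1.18), and under the replicate block (0.80 and 0.59), where they were 0.23 and 0.79. Ccng1 missed it with libraries 1 and 2 separate (0.69, adjusted p = 0.069). Trp53inp1 passed without Dnmt1 KO 3, Dnmt3b KO 2, WT 3 and WT 4, with DESeq2 (adjusted p = 0.021), the reference covariate (0.036), without libraries 1 and 2 (0.024) and without ExE classes (0.027). Phlda3 passed without Dnmt3b KO 1 and 11, with DESeq2 (0.039) and without libraries 1 and 2 (0.011), and Cdkn1a without libraries 1 and 2 (0.78, adjusted p = 0.045) and without ExE classes (0.83, adjusted p = 0.021).

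The log2 values that turned sign were not called in the main comparison. In Dnmt3a KO these were, with the Y-linked covariate, Cdkn1a (0.36), Ccng1 (0.41), Bax (0.13), Pmaip1 (0.22) and Phlda3 (0.45), with the reference covariate Ccng1 (0.054), with embryos thinned Trp53 (−0.00066), with cells thinned Trp53 (−0.011), Bbc3 (−0.20) and Eda2r (−0.14), and without ExE classes Trp53inp1 (−0.082). With a library left out Trp53 ranged from −0.0071 to 0.049, Mdm2 from −0.034 to 0.020, Trp53inp1 from −0.037 to 0.15 and Eda2r from −0.050 to 0.25. In Dnmt3b KO without libraries 11 and 12 they were Cdkn1a (−0.042), Mdm2 (0.035), Bax (−0.23), Bbc3 (−0.052), Pmaip1 (−0.49) and Phlda3 (−0.054), and with a library left out Bax ranged from −0.072 to 0.14, Bbc3 from −0.0096 to 0.48 and Pmaip1 from −0.13 to 0.80. The erythroid difference of Trp53inp1 in Dnmt3b KO was −0.065 with a pseudocount of 5.

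No pairing of embryos by replicate number was seen. Of 13 pairs sharing a number 5 had correlated deviations above 0.1, with a range of −0.344 to 0.368 and a median of 0.010. Of 104 pairs not sharing a number 37 did, with a median of 0.012. Whether embryos shared a litter or a batch was not tested. With the replicate number as a block and libraries 1 and 2 separate, the counts were 6, 0 and 0 in the KO groups over WT and 6 for Dnmt1 KO over Dnmt3b KO, pairs numbered 22, 0 and 0, and Bax in Dnmt1 KO had an adjusted p of 0.071 at a log2 value of 0.48, against 0.46 without the block. Under this block Cdkn1a (0.069) and Pmaip1 (0.17) turned sign in Dnmt3a KO, and Bax (−0.20) and Bbc3 (−0.047) in Dnmt3b KO. Of 26 libraries and groups sharing a number, 4 correlated best with their own.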
